A study of Mus musculus with 16 samples.

Results

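The NRF2 antioxidant pathway was followed through 10 genes in the kidneys of Klotho-mutant and control mice of both sexes. The genes were taken by name from the deposited expression table: the transcription factor Nfe2l2, its repressor Keap1, and the target genes Nqo1, Hmox1, Gclc, Gclm, Txnrd1, Srxn1, Gsr and Slc7a11. All 10 were found among the 30277 genes of the table, and 9 were among the 18178 genes with enough signal to test. Slc7a11 was below the filter and was handled separately.

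NRF2, the protein of Nfe2l2, drives genes that detoxify electrophiles and keep glutathione and thioredoxin reduced. In unstressed cells KEAP1 holds NRF2 for ubiquitination by a cullin 3 ligase, and oxidants that modify KEAP1 let NRF2 build up and bind antioxidant response elements with a small MAF partner. Much of the control is on the NRF2 protein, so that the RNA of its targets is the usual readout, and the proximal tubule is a major site of glutathione use in the kidney.

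The study profiled polyadenylated RNA of whole kidneys from 16 mice, 1 library per animal, to compare renal failure and sex in gene expression. Male KlKl and female KlKl mice were homozygous for a recessive mutation of Klotho (Kl), a co-receptor for the hormone FGF23, and had renal failure per the labels. Male and female controls had healthy kidneys per the labels, and each of the 4 groups held 4 animals. All animals were C57BL/6J, congenic for the mutation, which is inherited and present in every tissue. Male controls 3 and 4 were wild type, and the other 6 controls carried 1 mutant allele. Ages were 46 to 59 days in male KlKl, 46 to 48 days in male controls, 47 to 52 days in female KlKl and 47 to 57 days in female controls, with male KlKl 4 the oldest at 59 days and female control 3 next at 57 days. Kidneys had been perfused and frozen.

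Expression is given here as TPM, the authors' length-scaled value, multiplied by a factor for each library that brings the median ratio over 12152 genes to the same level, and is called scaled TPM. In these files the length is that of the whole gene with its introns, so a TPM can be compared for 1 gene between libraries but not between genes. Reads recovered from the values numbered 13030757 to 17445250 in male KlKl, 17104999 to 20109622 in male controls, 10999898 to 12390928 in female KlKl and 8209573 to 14505573 in female controls, so female libraries were mostly shallower. Library names carry the numbers 17 to 24 in the males and again in the females, and no run or date is given in the sources used here. A technical difference between the libraries of the sexes cannot be told apart from sex. In such bulk samples, fewer cells of a type and less RNA per cell cannot be told apart either.

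The genotype labels were checked first. Kl averaged 0.757 ± 0.412 scaled TPM in male KlKl and 9.67 ± 1.21 in male controls, and 0.156 ± 0.0915 in female KlKl against 4.03 ± 1.69 in female controls (SD, n = 4 each). The log2 difference of KlKl minus control was -3.70 in males and -4.00 in females (adjusted p = 0.00533 and 0.00102, limma with Benjamini-Hochberg adjustment over all genes). The male call was lost in a fit on the male libraries alone and in one with heterozygous controls alone (adjusted p at most 0.176, limma), and all 4 KlKl kidneys lay below all controls in each sex. Xist and Ddx3y matched the sex label of every library. Markers of the kidney's own segments were present in all libraries, with summed proximal tubule markers (7 genes) of 164 to 320 scaled TPM.

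A pair of libraries stood apart in these genes. Male KlKl 3 was the lowest of its group in Keap1, Hmox1, Gclc, Gclm, Txnrd1 and Srxn1, with macrophage markers at 42.9 scaled TPM against 23.8 to 35.03 in the other male KlKl kidneys. Female control 3 had the fewest reads of all libraries and the lowest summed proximal tubule markers, at 164 scaled TPM. Results that rest on either library are given with and without it. Male KlKl 3 was singled out by its low values in these same genes, and female control 3 also had the highest Gsr. Calls gained by leaving them out follow in part from that choice and are description only.

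NRF2 acts through the antioxidant response element, whose core is TGACNNNGC, or GCNNNGTCA read on the other strand. RefSeq promoter windows (build GRCm38.p6, 250 bases before to 50 after a gene's start) matched 7 of the 10 genes, with 9 windows in all. The core was in the windows of Nfe2l2 itself, Srxn1, Gclm and Txnrd1, which are shown on the strand of the gene with the core in capitals and 10 bases on either side.
Nfe2l2: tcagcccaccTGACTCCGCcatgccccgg
Srxn1: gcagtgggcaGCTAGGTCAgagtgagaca
Gclm: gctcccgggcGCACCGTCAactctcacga
Txnrd1: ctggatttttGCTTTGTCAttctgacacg
The Nfe2l2 stretch lies at chr2:75704885-75704913 on the minus strand, its core starting 240 bases before the gene's start. The Srxn1 stretch lies at chr2:152105542-152105570 on the plus strand, its core starting 28 bases after the start. Those of Gclm (chr3:122245413-122245441, plus strand) and of 1 of the 3 Txnrd1 windows (chr10:82859104-82859132, plus strand) have cores starting 134 and 92 bases before the start. The core occurs in 12.4% of all 32851 windows and in 13.99% of all 27025 genes with a window. Keap1, Nqo1 and Slc7a11 have no match in these windows, which says only that these letters are not there.

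To compare the genes with each other, recovered reads were set per kilobase of exon (GENCODE M21) and per 1000000 reads of the library. In male KlKl kidneys the highest levels on this scale were Gsr at 56.2 ± 7.81, Gclc at 55.4 ± 13.6, Nqo1 at 51.9 ± 13.1 and Gclm at 50.2 ± 16.9 (SD, n = 4), and their ranges overlapped. In male controls Gclc averaged 64.5 ± 14.1, Gclm 53.4 ± 3.07 and Gsr 52.7 ± 2.94, again with overlapping ranges, and Nqo1 followed at 29.6 ± 4.38 without reaching them. The top of the order in male controls was thus held by genes that make and recycle glutathione. Txnrd1, Nfe2l2 and Srxn1 came next in male controls at 17.9 ± 2.41, 17.7 ± 2.14 and 15.6 ± 1.75, which overlap. Hmox1 averaged 12.4 ± 3.74 and overlapped Srxn1, and Keap1 followed at 10.6 ± 0.380, within the range of Hmox1. Slc7a11, the cystine transporter that feeds glutathione synthesis in many cultured cells, stood at 0.0204 ± 0.00576 in the same kidneys. Its counts were 0 to 11 reads per library, against a lowest library value of 33 reads for any other of the genes (Hmox1 in female control 3).

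**Figure D1:**
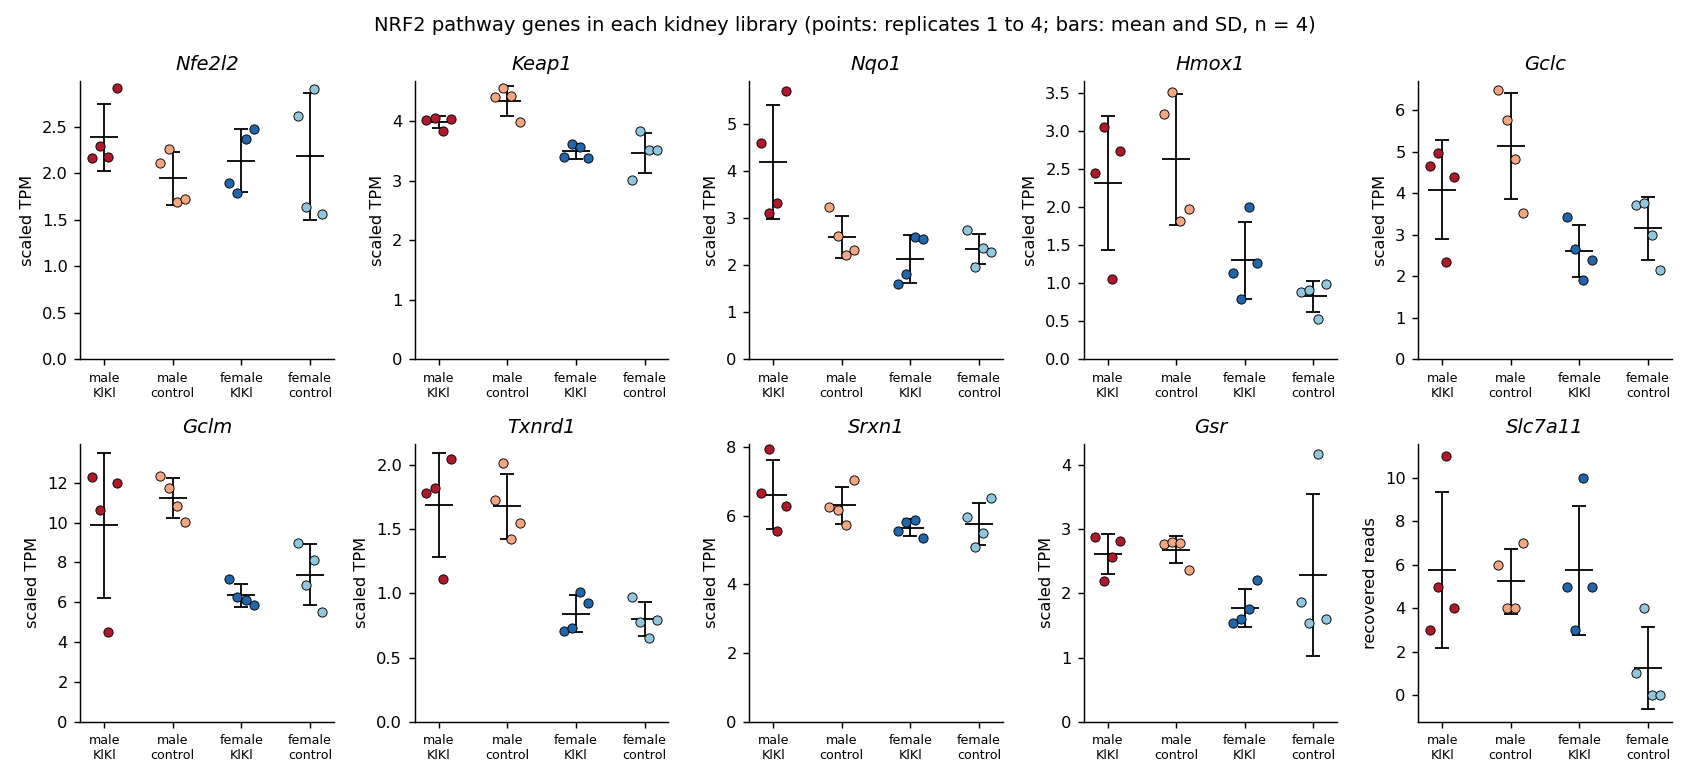
Scaled TPM of the 10 NRF2 pathway genes in each library (for Slc7a11, recovered reads), with points for replicates 1 to 4 and bars for the mean and SD of the 4 animals in male KlKl, male control, female KlKl and female control. Txnrd1 and Hmox1 of male controls lie above all female controls, male KlKl 3 is the low point of Gclc and Gclm in its group, and KlKl and control points of each sex overlap in every panel.

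The first question was whether these genes differ between kidneys in renal failure and healthy kidneys. None of the 9 genes tested passed an adjusted p of 0.05 in males (0 of 9) or in females (0 of 9). Among all genes tested, 0.0055% passed in males (1 gene, Kl) and 0.011% in females (2 genes, Kl and Crabp1), so few genes of any kind passed. At an unadjusted p under 0.05 there were 823 genes in males and 719 in females, and of the NRF2 genes 1 in males (Nqo1) and 0 in females. KlKl and control libraries did not separate for any of the 9 genes in either sex, where 2% of all genes were higher without overlap and 2.01% lower in males, and 0.897% and 1% in females. Voom, a limma fit on the recovered reads, called 6 genes in males (0.034% of 17648) and 2 in females (0.0113%), and 4 with the sexes averaged (0.0227%), none of them from the NRF2 genes.

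Nfe2l2, the transcription factor, had 2.16, 2.30, 2.17 and 2.92 scaled TPM in male KlKl kidneys and 2.11, 2.26, 1.69 and 1.73 in male controls. Male KlKl 2 and 4 were above every male control, and the other male KlKl kidneys lay within the control range. The log2 difference of KlKl minus control was 0.28 (SE 0.19, 95% interval -0.13 to 0.69). In females it had 1.90, 1.79, 2.37 and 2.48 in KlKl and 2.61, 1.64, 2.91 and 1.56 in controls, a difference of 0.01 (SE 0.19). All female KlKl values fell inside the wide control range.

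Keap1, the adaptor that marks NRF2 for degradation, had the smallest standard error of the 9. It had 4.02, 4.04, 3.84 and 4.04 scaled TPM in male KlKl and 4.40, 4.56, 4.42 and 3.98 in male controls. Male KlKl kidneys clustered tightly below 3 of the 4 male controls, with male control 4 inside their range. The difference was -0.12 (SE 0.08, 95% interval -0.28 to 0.05) in males and 0.01 (SE 0.08) in females, where KlKl kidneys had 3.40, 3.61, 3.57 and 3.38 and controls 3.01, 3.83, 3.52 and 3.51.

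Nqo1, a quinone reductase and a standard reporter of NRF2 activity, had the largest difference of the 9 genes in males. It had 4.59, 3.10, 3.32 and 5.70 scaled TPM in male KlKl kidneys against 3.22, 2.62, 2.21 and 2.32 in male controls. Male KlKl 1, 3 and 4 were above all male controls, and male KlKl 2 lay just below male control 1. The log2 difference was 0.64 (SE 0.20, 95% interval 0.20 to 1.08), a ratio of 1.56, with an adjusted p of 0.866 in limma (unadjusted 0.00726). In females Nqo1 had 1.59, 1.796, 2.59 and 2.54 in KlKl kidneys against 2.73, 1.96, 2.36 and 2.28 in controls. Here female KlKl 1 and 2 were below all controls and the difference was -0.15 (SE 0.20). The difference between the KlKl effects of males and females was 0.79 for Nqo1 (SE 0.29, unadjusted p = 0.0162), with an adjusted p of 0.999 in limma. Within the name series CFK, which holds replicates 1 and 2 of each group, the male difference was 0.37, and within CFdk, which holds replicates 3 and 4, it was 0.91. The female difference was -0.43 in CFK and 0.14 in CFdk. Male controls of CFK were heterozygous and those of CFdk wild type, so name series and control genotype cannot be told apart in males.

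Hmox1 encodes the inducible heme oxygenase, which degrades heme and responds to BACH1 as well as to NRF2. It had 2.44, 3.05, 1.05 and 2.73 scaled TPM in male KlKl kidneys and 3.23, 3.51, 1.81 and 1.97 in male controls. Male KlKl 3 was below all controls and the others lay among them, a difference of -0.22 (SE 0.34) that became 0.11 without male KlKl 3. In females it had 1.14, 0.790, 2.00 and 1.27 in KlKl kidneys and 0.881, 0.905, 0.531 and 0.985 in controls. Female KlKl 1, 3 and 4 were above all controls and female KlKl 2 was within their range. That difference of 0.56 (SE 0.34, 95% interval -0.17 to 1.28) was the largest of the 9 in females, and its adjusted p was 0.966 in limma. By name series the female difference was 0.08 in CFK and 1.04 in CFdk. Summed macrophage markers, from cells that also express Hmox1, were 34.6 to 40.9 scaled TPM in female KlKl and 26.03 to 30.6 in female controls. These female ranges did not overlap. In males the sums were 23.8 to 42.9 in KlKl and 20.7 to 31.98 in controls, with overlap. The median log2 difference of the 7 tested markers was 0.31 in males and 0.27 in females, with 6 positive in each sex. Male KlKl 3, with the lowest male Hmox1, had the highest macrophage sum, 42.9. Of the 9 macrophage markers 7 were tested and 0 passed, and none was under 3 reads in every library. Their part in the Hmox1 values was not tested.

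Gclc and Gclm encode the catalytic and modifier subunits of glutamate-cysteine ligase, the rate-limiting enzyme of glutathione synthesis. Gclc had 4.64, 4.98, 2.34 and 4.39 scaled TPM in male KlKl kidneys and 6.48, 5.76, 4.82 and 3.52 in male controls. Gclm had 12.3, 10.6, 4.48 and 11.99 in male KlKl kidneys and 12.4, 11.8, 10.8 and 10.1 in male controls. Both were lowest in male KlKl 3, and the other male KlKl kidneys lay within the control range. The male differences were -0.34 for Gclc (SE 0.26) and -0.29 for Gclm (SE 0.26), and without male KlKl 3 they were -0.10 and 0.05.

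In females Gclc had 3.42, 2.66, 1.92 and 2.39 scaled TPM in KlKl kidneys and 3.71, 3.76, 2.99 and 2.14 in controls. Gclm had 7.16, 6.28, 6.11 and 5.84 in female KlKl kidneys and 8.998, 6.89, 8.13 and 5.49 in controls. The groups overlapped for both, with Gclm of every female KlKl kidney below the control median. The differences were -0.26 (SE 0.26) for Gclc and -0.19 (SE 0.26) for Gclm.

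Gsr, glutathione reductase, returns oxidised glutathione to its reduced form with NADPH. It had 2.88, 2.19, 2.57 and 2.82 scaled TPM in male KlKl kidneys and 2.76, 2.81, 2.79 and 2.37 in male controls, a difference of -0.04 (SE 0.24). In females it had 1.54, 1.60, 1.76 and 2.20 in KlKl kidneys and 1.86, 1.54, 4.17 and 1.60 in controls. Female control 3 was far above every other female kidney, and the difference of -0.24 (SE 0.24) became 0.08 without it.

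Slc7a11 had 3, 5, 11 and 4 recovered reads in male KlKl kidneys and 6, 4, 4 and 7 in male controls, and 5, 3, 10 and 5 in female KlKl kidneys against 1, 4, 0 and 0 in female controls. The sums were 23 reads in male KlKl, 21 in male controls, 23 in female KlKl and 5 in female controls. On scaled TPM a two-sided exact permutation test gave p = 0.857 in males and 0.0571 in females, where 4 against 4 libraries can go down to 0.0286. Adjusted over the 4 comparisons tested for this gene, the female p of the exact test was 0.171. With so few libraries, a comparison that was low by itself among the 4 could not have passed after that adjustment.

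Txnrd1, the cytosolic thioredoxin reductase, had 1.78, 1.82, 1.11 and 2.05 scaled TPM in male KlKl kidneys and 1.72, 2.01, 1.42 and 1.55 in male controls. Male KlKl 3 was the lowest of the 8, and the difference was -0.01 (SE 0.18, 95% interval -0.39 to 0.37). In females it had 0.705, 0.732, 1.006 and 0.926 in KlKl kidneys and 0.974, 0.778, 0.651 and 0.791 in controls, a difference of 0.07 (SE 0.18).

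Srxn1 encodes sulfiredoxin, which repairs over-oxidised peroxiredoxins. It had 6.66, 7.95, 5.55 and 6.28 scaled TPM in male KlKl kidneys and 6.24, 6.17, 5.74 and 7.05 in male controls. In females it had 5.56, 5.82, 5.87 and 5.35 in KlKl kidneys and 5.97, 5.09, 5.49 and 6.51 in controls. The differences of 0.06 in males (SE 0.11, 95% interval -0.17 to 0.30) and -0.02 in females (SE 0.11, 95% interval -0.26 to 0.21) had the narrowest intervals after those of Keap1.

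**Figure D2:**
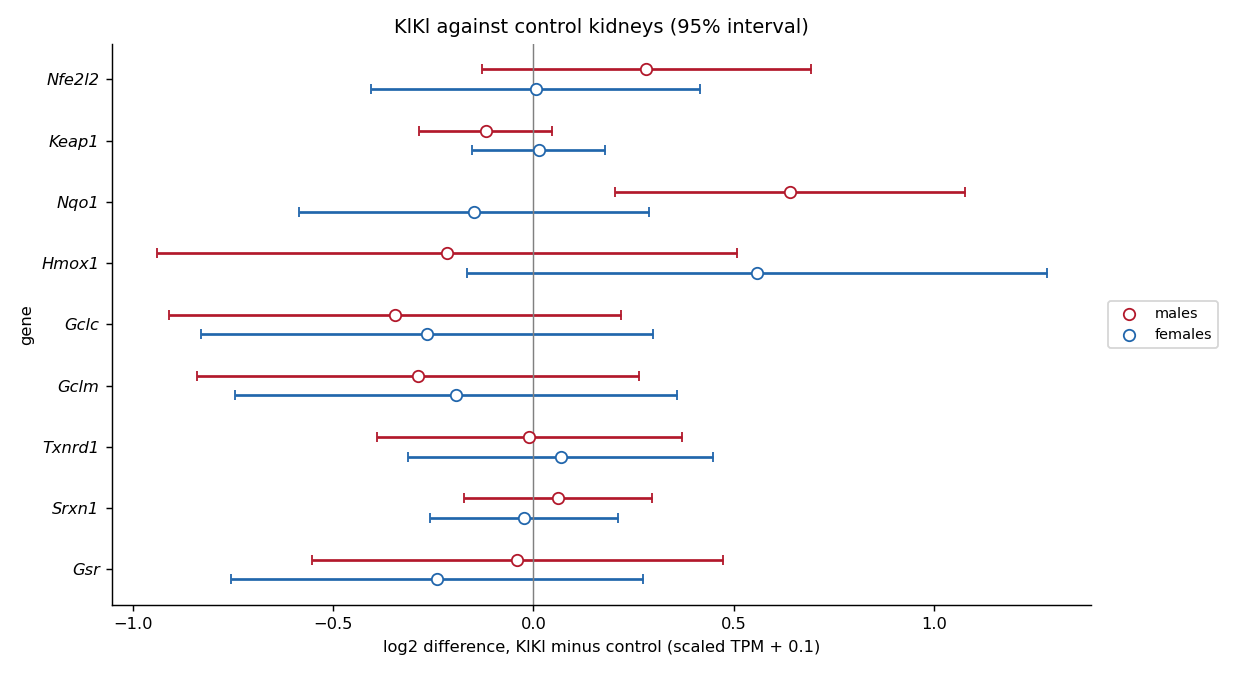
Log2 difference of KlKl minus control in males and in females for the 9 genes tested, with 95% intervals from limma. Only the male Nqo1 interval, 0.20 to 1.08, excludes 0 before adjustment, and no gene passed after it.

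The median difference over the 9 genes was -0.04 in males and -0.02 in females, beside medians of -0.00105 and 0.01 over all genes tested. Of the 9, 3 were positive in males and 4 in females. With the sexes averaged, differences ran from -0.30 (Gclc) to 0.25 (Nqo1), and 0 of 9 passed, against 0.022% of all genes (4 of 18178, with 984 at an unadjusted p under 0.05). For the difference of the KlKl effects between the sexes 0 of 9 passed, and 0% of all genes (519 at an unadjusted p under 0.05, and 0 by voom). A p that misses the threshold does not show that levels were equal. The precision differed by gene. The lowest bound of any 95% interval of the KlKl to control ratio was 0.521 in males and 0.563 in females, and the highest was 2.11 in males (Nqo1) and 2.43 in females, whereas the intervals of Keap1 and Srxn1 were narrow, as given above. The TPM as deposited put the median of all genes 0.23 higher in male KlKl and 0.14 higher in female KlKl, and 0 of 9 passed on that scale too.

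The wider antioxidant network showed no call in KlKl kidneys either. Counts of 0 below stand beside 0.0055% of all genes passing in males and 0.011% in females, and are no result about a list. Of 18 further NRF2 targets tested, which include Prdx1, Txn1, G6pdx and Sqstm1, 0 passed in males and 0 in females, with medians of -0.05 and 0.02. Of 10 NRF2 partners and regulators (medians -0.02 and -0.01, ranges -0.15 to 0.73 and -0.19 to 0.39) 0 passed in males and 0 in females. The same held for 13 genes of glutathione synthesis, breakdown and peroxidases (medians -0.13 and -0.08). It held for 12 of the thioredoxin, peroxiredoxin, catalase and superoxide dismutase group (-0.08 and -0.02). It held too for 7 genes, the stress factor Atf4 and its targets (-0.10 and -0.02), and for 6 of heme breakdown and synthesis (-0.02 and 0.04). Summed tubule injury markers (7 genes, among them Spp1 and Vim) were 141 to 226 scaled TPM in male KlKl and 91.2 to 134 in male controls. In females they were 310 to 381 in KlKl against 272 to 320 in controls, with overlap, whereas the male ranges did not overlap. All 7 markers were positive in males, with log2 differences of 0.21 to 1.43 and a median of 0.56. In females 6 of the 7 were positive, from -0.16 to 0.60 with a median of 0.27, and 0 of the 7 passed in either sex. Spp1 alone averaged 154 of a mean sum of 189 in male KlKl and 91.0 of 116 in male controls. In females it averaged 300 of 340 in KlKl and 260 of 296 in controls. Erythrocyte markers (5 genes, 4 tested, 0 passing) ran from 67.9 to 401 in male KlKl and from 10.0 to 123 in male controls, with a median difference of 1.82. In females the KlKl sums of 18.5 to 60.3 lay within the control range of 3.74 to 153, with a median difference of -0.22 (0 passing). Their part in the values above was not tested.

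The second question was how the genes differ between male and female kidneys. In KlKl kidneys 2 of the 9 genes passed, both higher in males, against 22.6% of all genes tested (12.4% higher and 10.3% lower). In controls 3 of the 9 passed, all higher in males, against 34.3% of all genes (18.6% higher and 15.7% lower). Shares of 2 and 3 in 9 are near these backgrounds, so that the number of calls is no result about the NRF2 genes. Groups did not overlap for 3 genes in KlKl (Keap1, Nqo1 and Txnrd1, all higher in males, beside 16% of all genes) and for 4 in controls (Keap1, Hmox1, Gclm and Txnrd1, beside 18.7%). The median difference over the 9 genes was 0.54 in KlKl and 0.34 in controls, beside medians of -0.00016 and 0.01 over all genes. All 9 were positive in KlKl and 8 in controls, with Nfe2l2 at -0.12 the exception.

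Txnrd1 had the firmest sex difference. From the values above, every male kidney exceeded every female kidney of its genotype. The log2 difference of males minus females was 0.91 in KlKl (SE 0.18, adjusted p = 0.00341, limma) and 0.98 in controls (SE 0.18, adjusted p = 0.00103, limma), ratios of 1.87 and 1.98. By name series it was 1.21 in CFK and 0.60 in CFdk in KlKl, and 1.02 and 0.95 in controls. It passed under all 29 alternatives in either genotype, which do not include the fits within a name series. With 2 libraries per group, it passed within CFK in both genotypes. Within CFdk it did not (adjusted p = 0.415 in KlKl and 0.0766 in controls, limma).

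Hmox1 in controls showed the largest sex difference of the 9 genes, with 1.81 to 3.51 scaled TPM in males and 0.531 to 0.985 in females. The difference was 1.53 (SE 0.34, adjusted p = 0.00355, limma), a ratio of 2.90 with a 95% interval of 1.75 to 4.78. In KlKl kidneys the ranges were 1.05 to 3.05 in males and 0.790 to 2.00 in females, with a difference of 0.76 that did not pass (adjusted p = 0.117, limma). Without male KlKl 3 that difference was 1.09 and passed (adjusted p = 0.0181, limma). The difference between the sex effects of KlKl and controls was -0.77 for Hmox1 and did not pass (adjusted p = 0.999, limma). By name series the sex difference was 1.804 in CFK and 1.27 in CFdk in controls, and 1.43 and 0.09 in KlKl. Male controls 1 and 2, both heterozygous, had 3.23 and 3.51 and the wild-type male controls 3 and 4 had 1.81 and 1.97, and genotype and name series cannot be told apart in these 4 animals.

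Nqo1 in KlKl kidneys was higher in males without overlap, at 3.10 to 5.70 scaled TPM against 1.59 to 2.59 in females. The difference was 0.93 (SE 0.20, adjusted p = 0.00654, limma), 1.11 within CFK and 0.74 within CFdk. In controls Nqo1 had 2.21 to 3.22 in males and 1.96 to 2.73 in females, a difference of 0.14 (SE 0.20) that did not pass. These sex differences share their libraries with the KlKl comparisons above. The test of the difference between them is the one given for Nqo1 above, which did not pass after adjustment.

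Keap1 was higher in males by a small margin in both genotypes. The difference was 0.19 in KlKl (SE 0.08, adjusted p = 0.0958, limma), where no male and female values overlapped. In controls it was 0.32 (SE 0.08, adjusted p = 0.00636, limma), which fell just short in a fit on the control libraries alone (adjusted p = 0.0504, limma). By name series it was 0.20 in CFK and 0.18 in CFdk in KlKl, and 0.39 and 0.25 in controls. Nfe2l2 overlapped widely between the sexes, with differences of 0.16 in KlKl and -0.12 in controls (SE 0.19 each).

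The ligase subunits were higher in males on average, and whether they passed depended on the fit. Gclc differed by 0.61 in KlKl (SE 0.26, adjusted p = 0.109, limma) and by 0.69 in controls (SE 0.26, adjusted p = 0.0564, limma). Gclm differed by 0.53 in KlKl (SE 0.26, adjusted p = 0.152, limma) and by 0.62 in controls (SE 0.26, adjusted p = 0.0754, limma). By name series the Gclc difference was 0.65 in CFK and 0.56 in CFdk in KlKl, and 0.70 and 0.68 in controls, and that of Gclm 0.76 and 0.29 in KlKl, and 0.61 and 0.63 in controls. In KlKl the 3 other males lay above all females for both genes, and male KlKl 3 lay among or below the females. Without male KlKl 3, the Gclc difference in KlKl was 0.85 and that of Gclm 0.87, and both passed in either genotype. Then 5 of the 9 genes were past the threshold in KlKl (24.5% of all genes) and 5 in controls (36.6%). That library was singled out by low values of these same genes, so the added calls are description only. With name series as a term the same Gclc differences passed (adjusted p = 0.0251 in KlKl and 0.00892 in controls, limma), and with a replicate block as well (adjusted p = 0.0421 and 0.0170). In all, Gclc passed under 5 of 29 alternatives in KlKl and 10 in controls, and Gclm under 3 and 5. Voom on the recovered reads also called Gclc and Gclm in controls, 5 of the 9 in all against 39.5% of its genes, and in KlKl it called Nqo1 and Txnrd1 alone, against 28.4%.

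Gsr had differences of 0.54 in KlKl and 0.34 in controls (SE 0.24 each), and neither passed with all libraries. Without female control 3, the Gsr difference was 0.66 in controls (adjusted p = 0.00187, limma), and that in KlKl, where the value was the same and the standard error 0.12, passed too (adjusted p = 0.00467, limma). Srxn1 differed by 0.21 in KlKl and 0.13 in controls (SE 0.11 each) and did not pass. With male KlKl 3 and female control 3 both left out, 7 of the 9 genes passed in KlKl (35.2% of all genes) and 6 in controls (39.1%). Gsr was among them in both. Since these libraries stood apart in the same genes, those counts are description only. The reads of Slc7a11 summed to 23 in KlKl kidneys of either sex, and to 21 in male and 5 in female controls, with exact permutation p-values of 0.514 in KlKl and 0.0857 in controls (two-sided, n = 4 each).

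**Figure D3:**
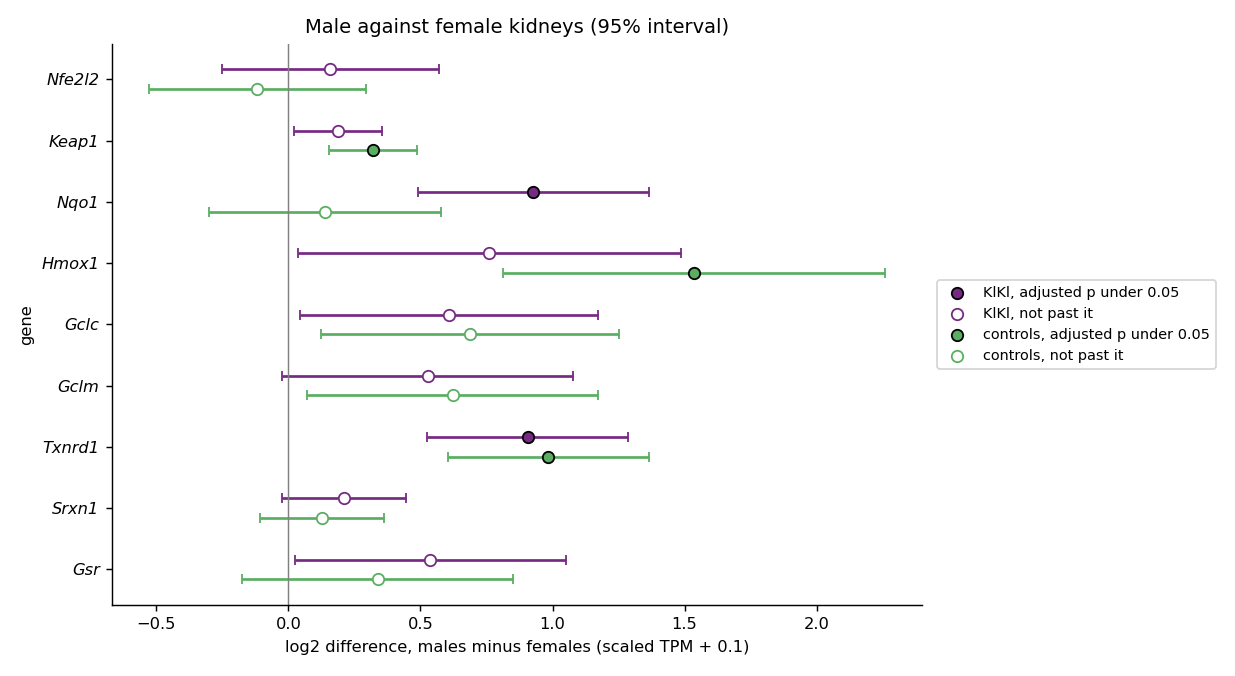
Log2 difference of males minus females in KlKl and in control kidneys for the 9 genes tested, with 95% intervals from limma and filled points for an adjusted p under 0.05. Txnrd1 passed in both genotypes (0.91 in KlKl and 0.98 in controls), Nqo1 in KlKl, and Hmox1 and Keap1 in controls.

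The scale matters for the sex comparison. On the TPM as deposited the median of all genes was 0.37 higher in KlKl males and 0.28 higher in control males than in females, and 94.4% of calls in KlKl and 85.5% in controls were higher in males, against 54.6% and 54.3% after scaling. On that scale 9 of the 9 genes passed in KlKl (39.6% of all genes) and 7 in controls (38.1%), and Nfe2l2 in controls was 0.22 rather than -0.12. Txnrd1 was 1.34 in KlKl and 1.30 in controls on that scale, Hmox1 1.85 in controls and Nqo1 1.38 in KlKl.

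In the rest of the network, calls between the sexes went in both directions. Counts of calls in the lists below stand beside 22.6% of all genes called in KlKl (12.4% higher and 10.3% lower in males) and 34.3% in controls (18.6% and 15.7%), and nothing particular to a list is read from them. Of the 18 further NRF2 targets tested, 3 passed in KlKl, all higher in males (G6pdx, Slc48a1 and Sqstm1), and in controls 4 were higher and 2 lower in males, shares at or below those of all genes. G6pdx, the glucose-6-phosphate dehydrogenase that supplies NADPH, was higher by 0.70 in KlKl and by 0.75 in controls (SE 0.15 each), and Slc48a1, a heme transporter, by 0.48 and 0.52 (SE 0.10 each). Sqstm1, the autophagy receptor p62 that binds KEAP1, was higher by 0.39 in KlKl and by 0.57 in controls, the first a call that leaving out any of 3 libraries ended (male KlKl 1, male KlKl 4 or female KlKl 2). The malic enzyme Me1 was higher in control males by 1.04 (adjusted p = 0.0202, limma), a call lost without female control 4. Cbr3, a carbonyl reductase, was lower in control males, with a difference of -0.65 (adjusted p = 0.000705, limma). Its means were 0.133 scaled TPM in male and 0.266 in female controls. Abcc4, an efflux transporter, was lower in control males, with a difference of -0.53, a call lost without male control 3 or female control 3. It was also lost on the TPM as deposited, on the control libraries alone and with heterozygous controls alone. Its means were 0.0796 in male and 0.163 in female controls, so both genes lay near the added 0.1.

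Among 10 partners and regulators, Cul3, the scaffold of the ligase that ubiquitinates NRF2, was higher in control males by 0.54 (SE 0.11, adjusted p = 0.00282, limma), and so was Mafk, a small MAF partner, by 0.69 (SE 0.16, adjusted p = 0.00446, limma). Rbx1, the RING subunit of the same ligase, was lower in males, with differences of -0.34 in KlKl and -0.35 in controls. In KlKl the Cul3 call of 0.39 was lost on leaving out any of 5 libraries and that of Rbx1 any of 4, and in controls that of Rbx1 was lost without male control 3. Both Rbx1 calls were also lost on the TPM as deposited. That in controls was lost as well on the control libraries alone and with heterozygous controls alone. In KlKl 1 of the 10 passed as higher and 1 as lower, and in controls 2 and 1.

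Of 13 glutathione genes outside the NRF2 set, 4 passed in KlKl and 6 in controls, all higher in males, where 12.4% and 18.6% of all genes passed as higher. Ggt1, the membrane enzyme that starts extracellular glutathione breakdown, averaged 25.9 scaled TPM in male and 13.4 in female KlKl kidneys, and 33.4 in male and 16.4 in female controls. Cbs, which begins the route from homocysteine to cysteine, differed by 1.10 in KlKl and 1.59 in controls (SE 0.19 each), Oplah, which returns 5-oxoproline to glutamate, by 0.93 and 0.67 (SE 0.13 each), and the glutaredoxin Glrx by 0.82 and 0.87 (SE 0.15 each). Those 4 calls held in both genotypes under all 29 alternatives.

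In the thioredoxin, peroxiredoxin, catalase and superoxide dismutase group, 0 of 12 passed as higher and 1 as lower in KlKl males, and 2 and 2 in control males. Prdx2, a cytosolic peroxiredoxin, was lower in males, with differences of -0.50 in KlKl and -0.71 in controls (SE 0.13 each). It averaged 28.4 scaled TPM in male and 40.04 in female KlKl kidneys and 27.4 in male and 45.3 in female controls. The Prdx2 call in KlKl was lost on the TPM as deposited, and that in controls was kept there. In control males Prdx4, the peroxiredoxin of the endoplasmic reticulum, was lower with a difference of -0.48, a call lost on the TPM as deposited. Catalase, Cat, was higher in control males by 0.51, a call lost without male control 1.

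Heme synthesis genes Fech and Cpox were higher in males, Fech by 0.82 in KlKl and 0.75 in controls (SE 0.14 each) and Cpox by 0.95 and 1.17 (SE 0.24 each), 2 of 6 genes in each genotype. Of 7 genes, the factor Atf4 and its targets, 2 passed as higher and 2 as lower in KlKl males, and 1 and 2 in control males. Psat1, a serine synthesis enzyme, was higher by 0.77 in KlKl males and kept its call when any 1 library was left out. It fell just short on the libraries of the comparison alone (adjusted p = 0.0502, limma). Sesn2, which encodes a stress-induced sestrin, was higher by 1.17 in KlKl males (adjusted p = 0.00286, limma) and by 0.70 in control males. Phgdh was lower in males, with differences of -0.61 in KlKl and -0.51 in controls. Atf4 was lower in KlKl males (-0.46) and Ddit3 in control males (-0.81). The calls of Phgdh, Atf4 and Ddit3, and that of Sesn2 in controls, were each lost on leaving out certain single libraries. Those of Phgdh, Atf4 and Ddit3 were also lost on the TPM as deposited.

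Marker lists and library measures were set beside the sex comparison. Of 7 proximal tubule markers 3 passed as higher in males in KlKl (beside 12.4% of all genes) and 3 in controls (beside 18.6%). In KlKl 5 of the 7 were positive, and differences ran from -0.53 to 0.87. In controls all 7 were positive, from 0.07 to 1.02. Aqp1, among the largest, averaged 64.4 scaled TPM in male and 34.8 in female KlKl kidneys, and 60.5 in male and 31.7 in female controls. The summed list overlapped, at 242 to 299 in male and 258 to 294 in female KlKl kidneys and 257 to 320 in male and 164 to 272 in female controls. Of 7 tubule injury markers 2 passed as lower in males in KlKl (beside 10.3% of all genes) and 3 in controls (beside 15.7%). In KlKl 2 of the 7 were higher in males, up to 0.82, and in controls 1, at 0.52. The list summed to 141 to 226 in male against 310 to 381 in female KlKl kidneys. In controls it summed to 91.2 to 134 against 272 to 320. Spp1 alone held most of each of these sums, so they chiefly give the level of that 1 gene. Erythrocyte markers, of which 4 were tested and 0 passed in either genotype, summed to 67.9 to 401 scaled TPM in male and 18.5 to 60.3 in female KlKl kidneys without overlap (median log2 difference 2.03), and to 10.0 to 123 in male and 3.74 to 153 in female controls (median -0.11). Mitochondrial genes took 9.71 to 14.1% of recovered reads in male and 14.3 to 17.4% in female KlKl kidneys, without overlap, and 13.01 to 16.96% in male and 12.97 to 19.6% in female controls. Their part in the sex differences of the NRF2 genes was not tested.

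**Figure D4:**
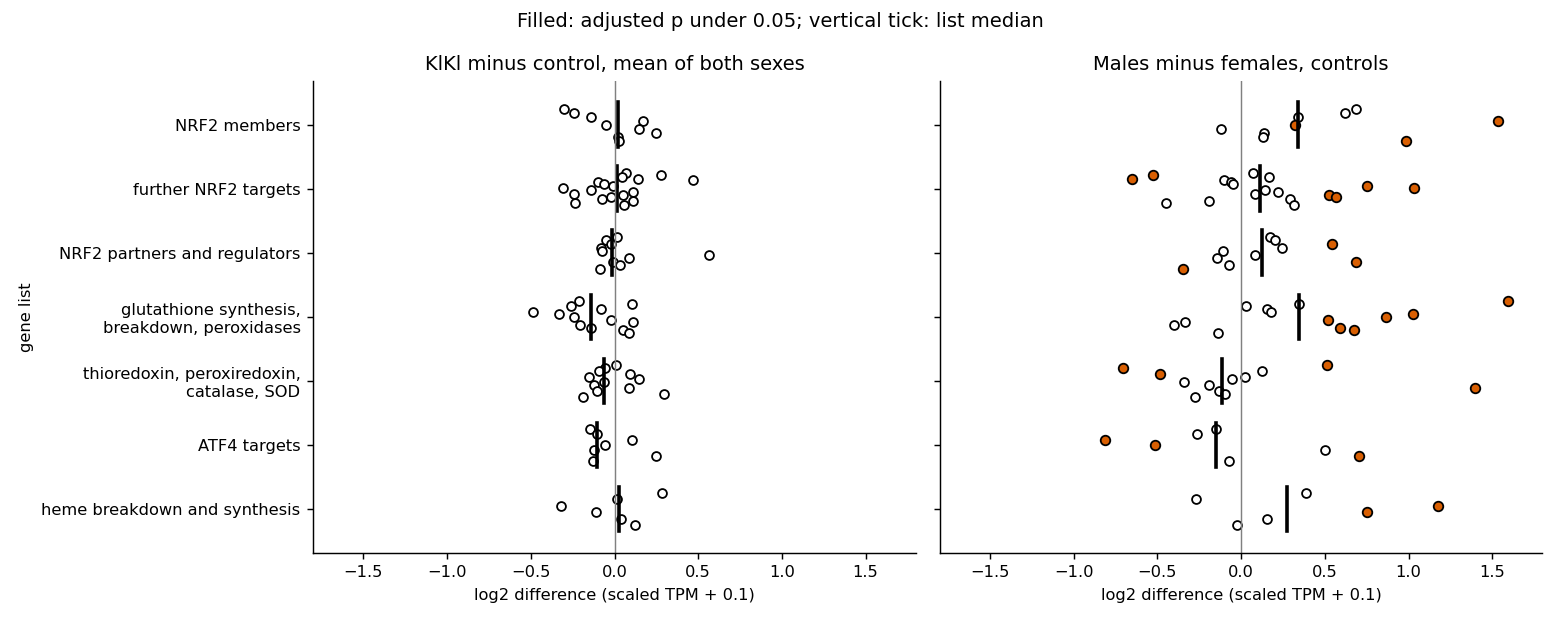
Log2 differences of each tested gene of 7 lists for KlKl minus control (mean of both sexes) and for males minus females in controls, with filled points for an adjusted p under 0.05 and a tick at each list's median. No point is filled for KlKl against control, whereas filled points lie on both sides of 0 for males against females.

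The ligase subunits Gclc and Gclm were also compared over the animals of a sex. Over the 8 males Pearson's r was 0.82 (exact permutation p = 0.0199, adjusted 0.0597 over 6 relations) and Spearman's rho 0.62 (exact permutation p = 0.115, adjusted 0.181). Without male KlKl 3 and male control 1, the males farthest from the median of Gclc, r was 0.44, so the relation rests on those animals. Over the 8 females r was 0.75 (exact permutation p = 0.0367, adjusted 0.0733) and rho 0.76 (exact permutation p = 0.0368, adjusted 0.181), and r was 0.89 without the 2 farthest. Each set of 8 pools KlKl and control animals, and none of the 6 relations passed after adjustment.

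Nfe2l2 and Nqo1 had r of 0.83 in males (exact permutation p = 0.0170, adjusted 0.0597) and 0.66 in females (exact permutation p = 0.0823, adjusted 0.124), with rho of 0.62 (exact permutation p = 0.115, adjusted 0.181) and 0.60 (exact permutation p = 0.132, adjusted 0.181). Without the 2 farthest animals r was 0.39 in males and 0.89 in females. Nfe2l2 and Gclm had r of 0.17 in males and 0.57 in females (exact permutation p = 0.611 and 0.154, adjusted 0.611 and 0.184), with rho of 0.05 and 0.57 (exact permutation p = 0.935 and 0.151, adjusted 0.935 and 0.181). Without the 2 farthest animals their r was 0.04 and 0.27.

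**Figure D5:**
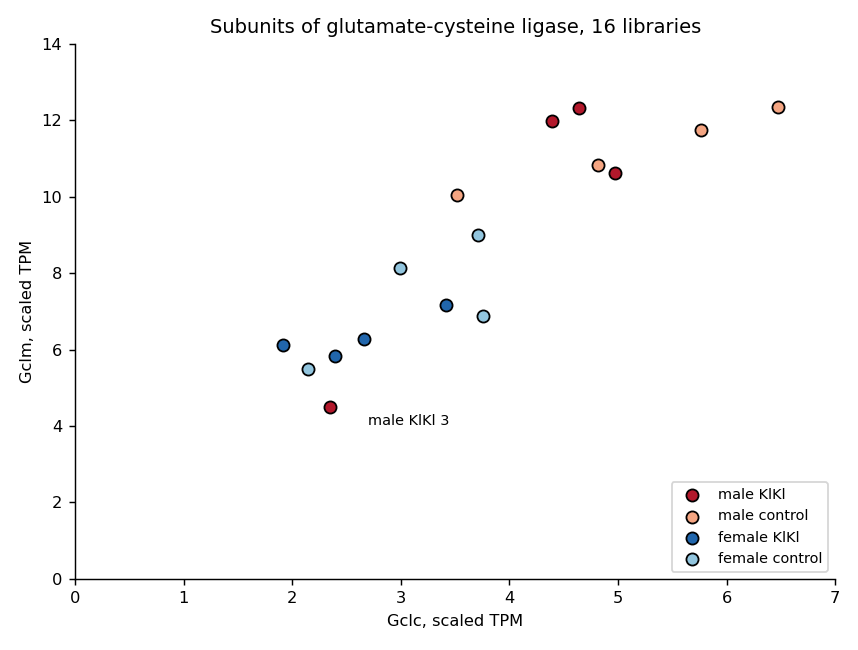
Gclm against Gclc in scaled TPM, 1 point per library, coloured by group. The lowest Gclm of all 16 libraries, 4.48, belongs to male KlKl 3, which lies within the female range for Gclc and below every other library for Gclm, apart from the other 7 males.

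The 7 tested target genes were also averaged, as z-scores of their log2 values, to find genes with a similar course over the 16 libraries. Of 5376 candidates the closest were Nat8f2 (r = 0.97), Arcn1, Abcd3, Wwp1 and Stt3b (r = 0.96 each). These r run over libraries of both sexes and of unlike depth, so they take in the difference between males and females. The average was 0.31 to 1.09 in 7 of the 8 males, -0.48 in male KlKl 3 and -0.93 to -0.24 in the females.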

How the data were processed

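Kidney RNA was sequenced from 16 mice and the authors deposited 1 table of TPM. Partek and build mm39 are named per the submitters' processing notes; aligner, counting rule, strand setting, annotation and filters: not given in the sources used here. A duplicate Kl row was counted once, leaving 30277 genes, and 0 columns belonged to other samples. Every column of the deposited TPM sums to 309446, and the values follow reads plus 0.0001 divided by the gene's span; reads recovered from this were whole within 0.1 for 80.6% of values under 20 reads. Counting error for a count of 0 allows up to 3 reads. Mitochondrial genes held 30.7% to 47.5% of the TPM total, so libraries were rescaled by median ratios (factors 0.744 to 1.41). Genes that overlap a member in the table had at most 75 reads per library.

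Limma 3.58.1 in R 4.3.3 was fitted to log2(scaled TPM + 0.1), which understates differences of low genes, for 18178 genes at 0.1 or more in at least 4 libraries, with 4 group means, 12 residual degrees of freedom and a mean-variance trend. Every adjusted p is from this fit, by Benjamini-Hochberg over all genes tested, with a threshold of 0.05, unless another test is named. Group values are mean ± SD over animals. Slc7a11, under the filter, was tested by exact permutation with scipy 1.17.1. On simulated data with known changes the fit was checked. Alternatives were 13 other settings and each of the 16 libraries left out in turn. The members and gene lists were chosen with earlier results of these data known. The text names all members, Kl, Xist and Ddx3y, up to 4 passing genes per list, comparison and direction, and the 5 genes most like the targets' mean; Crabp1 was named after its values were seen. Promoter sequences are from RefSeq (GRCm38.p6) and exon lengths from GENCODE M21, with no coordinates converted to mm39.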

Additional observations from a re-analysis of the deposited data

Results flagged for a closer look

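A sample was singled out where its gap to the nearest of its group of 4, divided by the group's range, exceeded the 95% critical value of Dixon's test. Of 44 groups examined 3 met this, and chance alone singles out about 1 in 20 groups. Keap1 in male KlKl 3, at 3.84 scaled TPM, was the lowest of a group whose other kidneys had 4.02 to 4.04 (ratio 0.888), so that the gap itself is small. Gsr in male control 4, at 2.37, lay below 2.76 to 2.81 in the other male controls (ratio 0.903). Gsr in female control 3, at 4.17, lay above 1.54 to 1.86 in the other female controls (ratio 0.876). Female control 3 was also the library with the fewest reads, and the part of that in its Gsr value was not tested.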

How the results depend on the processing

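The direction and call of the members were recomputed under 13 other settings and with each of the 16 libraries left out. Of 1548 values for members, 1441 kept direction and side of the threshold, 1 lost its call (Keap1 in controls), 38 gained one and 68 turned direction; of 1703 values for the other named genes the numbers were 1565, 135 lost, 0 gained and 3 turned. No member passed in a KlKl comparison under any of them. The cause of each change below was not tested.

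On the TPM as deposited 4 genes passed in the male KlKl comparison (3 of 4 higher, against 0 of 1), and with the sexes averaged 3 of 4 calls were higher, against 2 of 4. Also on that scale 7228 genes passed between the sexes in KlKl, with 9 members there and 7 in controls. On that scale these differences turned: in males Keap1 0.15, Hmox1 0.0472, Txnrd1 0.25 and Gsr 0.23; in females Nqo1 0.0125 and Srxn1 0.14; with the sexes averaged Keap1 0.16 and Gsr 0.0742; in the difference of the KlKl effects Gclc 0.0277, Gclm 0.013 and Txnrd1 0.0387; between the sexes Nfe2l2 0.22 in controls, and in KlKl Atf4 0.0001, Rbx1 0.12 and Slc12a1 0.0309. With female control 3 and male KlKl 3 both left out, 6 genes passed in males and 6393 between the sexes in KlKl, with 7 members there and 6 in controls. Then these turned: in males Hmox1 0.11, Gclm 0.0511 and Txnrd1 0.17; in females Txnrd1 -0.0146 and Gsr 0.0801; averaged Gsr 0.0233; in the difference of effects Gclc 0.17, Gclm 0.19, Txnrd1 0.18 and Gsr -0.11; and Nfe2l2 0.0311 between control males and females. With heterozygous controls alone Hmox1 was -0.0297 and Txnrd1 -0.0487 averaged, Nfe2l2 0.0515 between control males and females, 1 gene passed in the difference of effects and 3046 between the sexes in controls. With age as a covariate Gsr was -0.0615 in the difference of effects, Nfe2l2 0.0063 between control males and females, and 2 genes passed averaged. A pseudocount of 1 put Nfe2l2 in females at -0.0035.

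Counts of all genes past the threshold in the male KlKl comparison were 2 with a filter of TPM 1, 2 with no filter, 2 without the mean-variance trend, 3 with name series as a term, 6 by voom, and 0 on the libraries of the comparison alone, where Kl too fell short, as it did with heterozygous controls alone. In females they were 1 with the filter of TPM 1, 7 with name series and 5 on the comparison's libraries alone. The filter of TPM 1 left 2 genes averaged and 3801 between the sexes in controls. Voom called 5 members in controls. Replicate numbers did not pair the samples: 1 of 24 correlations of same-numbered libraries was over 0.1 (range -0.122 to 0.171). With a replicate block 2 genes passed in males, 2 in females and 0 members in either, and among the sex comparisons Gclc also passed (adjusted p = 0.0421 in KlKl and 0.0170 in controls, limma).

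Leaving out 1 library at a time gave 1 to 6 genes in males, 2 to 8 in females, 2 to 5 averaged, 0 to 1 in the difference of effects, 2578 to 5704 between the sexes in KlKl (lowest without female KlKl 2) and 4933 to 6727 in controls; members passing between the sexes were 2 to 5 in KlKl and 3 to 5 in controls, both highest without male KlKl 3. Differences that turned had these ranges. Males: Hmox1 -0.38 to 0.11, Gclm -0.43 to 0.0511, Txnrd1 -0.11 to 0.17, Srxn1 -0.0309 to 0.14, Gsr -0.0965 to 0.0399. Females: Nfe2l2 -0.13 to 0.15, Keap1 -0.0513 to 0.0613, Txnrd1 -0.0146 to 0.16, Srxn1 -0.08 to 0.0363, Gsr -0.38 to 0.0801. Averaged: Txnrd1 -0.0205 to 0.12, Srxn1 -0.0271 to 0.058, Gsr -0.21 to 0.0202. Difference of effects: Gclc -0.25 to 0.16, Gclm -0.23 to 0.24, Txnrd1 -0.18 to 0.0989, Srxn1 -0.0076 to 0.16, Gsr -0.12 to 0.34. Between control males and females: Nfe2l2 -0.25 to 0.0311. The fewest reads lay behind Slc7a11, 0 to 11 per library, and then Hmox1 in the female libraries, 33 to 197.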
